A study of Mus musculus with 12 samples.

Results

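The Ifit family of the mouse was followed in bone marrow progenitors of melanoma-bearing mice that had received a STING agonist. The members were chosen by gene name: Ifit1, Ifit2, Ifit3, Ifit3b and Ifit1bl1. These are 5 of the 35796 genes listed over both deposited count tables. All 5 had a row among the 29736 genes of the table for the cells labelled LSK, and 4 had a row among the 31042 genes of the table for granulocyte-monocyte progenitors (GMP). Ifit3b is not analysed here in GMP.

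The 12 libraries, made by Smart-Seq2 (an amplification of full-length cDNA from very little RNA), form 4 groups of 3: GMP STING agonist, GMP control, LSK STING agonist and LSK control. The mice of all groups were of the strain C57BL/6 and, by the title of the series, carried melanoma, and the agonist was diABZI, a small molecule that activates the innate immune adaptor STING. The dose, the time of treatment, the age of the mice, what the controls received, and the number of cells or mice behind a library are not stated by the labels. No label ties a library to a mouse, and p-values therefore reflect how much these 3 libraries per group differ, a spread that may be technical.

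Library totals ran from 30649314 to 47225983 counts, and levels are given as counts per 1e6 counts of these totals (CPM). LSK names cells that lack lineage markers and carry Sca-1 (encoded by Ly6a) and Kit, but Ly6a stood at 5.31 to 9.07 CPM in the LSK agonist libraries and at 0.402 to 0.827 CPM in the LSK control libraries, below the 17.5 to 25.9 CPM of the GMP agonist libraries. The erythroid progenitor gene Car2 stood at 6101 to 8373 CPM in the LSK agonist libraries and at 5604 to 8238 CPM in the LSK control libraries, so these cells are called LSK-labelled. Mpo, the myeloperoxidase gene, stood at 19928 to 25672 CPM in the GMP agonist libraries and at 19487 to 20921 CPM in the GMP control libraries. STING agonist replicate 1 had the most genes with a count in each cell type, 24971 in GMP and 22280 in LSK-labelled cells, against 15099 to 20870 in the other libraries. The mitochondrial share of the counts was 1.24 to 1.96% in the GMP agonist libraries and 2.13 to 3.52% in the GMP control libraries, and 2.72 to 3.61% in the LSK agonist libraries and 1.70 to 2.41% in the LSK control libraries. In neither cell type did the groups overlap in this share, and its part in the results was not tested. In these bulk libraries, fewer cells of a type and less RNA per cell cannot be told apart.

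Ifit genes encode cytoplasmic proteins built of tetratricopeptide repeats, and they are among the classic targets of type I interferon. Interferon binding to its receptor leads to the assembly of the complex ISGF3, of which IRF9 is a subunit, and this complex binds the interferon-stimulated response element (ISRE) upstream of its targets. The Ifit1 protein binds viral RNA whose cap lacks a methyl mark of the host and blocks its translation. Ifit2 restricts several viruses, and in human cells IFIT3 is known to bind and stabilise IFIT1.

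The start regions of the members were searched for this element, through which interferon acts on such genes. RefSeq start windows (assembly GRCm38.p6) of 300 bases, 250 before the start and 50 after it, were searched on both strands for the core of an ISRE, which is GAAA followed by 2 bases of any kind and a second GAAA. Of all 32817 windows 3.43% held a match and 0.222% held at least 2. Each line below gives the plus or minus strand of the gene from 5′ to 3′, with the matches in capitals. The matches lie on the opposite strand, so on the printed strand they read TTTC, 2 bases of any kind and TTTC. The Ifit1, Ifit3, Ifit3b and Ifit1bl1 stretches carry 30 bases on each side of the matches, and the Ifit2 stretch is the 250 bases before the first RefSeq start.
Ifit1, chr19:34640755-34640843, plus strand: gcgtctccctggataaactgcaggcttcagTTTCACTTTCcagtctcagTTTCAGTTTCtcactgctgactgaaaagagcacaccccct
Ifit3, chr19:34583343-34583446, plus strand: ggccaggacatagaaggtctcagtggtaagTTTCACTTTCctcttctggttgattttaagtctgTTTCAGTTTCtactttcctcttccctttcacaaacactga
Ifit3b, chr19:34607739-34607842, plus strand: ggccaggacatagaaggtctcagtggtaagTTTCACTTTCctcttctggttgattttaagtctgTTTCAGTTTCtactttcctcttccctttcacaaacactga
Ifit1bl1, chr19:34602033-34602102, minus strand: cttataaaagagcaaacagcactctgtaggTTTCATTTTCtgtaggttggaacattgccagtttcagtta
Ifit2, chr19:34550444-34550693, plus strand: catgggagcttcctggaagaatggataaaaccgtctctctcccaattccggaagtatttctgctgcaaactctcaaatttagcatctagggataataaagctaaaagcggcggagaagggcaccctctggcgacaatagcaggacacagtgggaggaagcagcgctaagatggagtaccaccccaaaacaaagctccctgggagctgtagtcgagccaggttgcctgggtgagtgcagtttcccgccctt

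Ifit1, Ifit3 and Ifit3b each held 2 matches, spelled TTTCACTTTC and TTTCAGTTTC in all 3 genes. The Ifit3 and Ifit3b stretches printed above are letter for letter the same, and over their 260 aligned window bases the genes were 99.6% identical. Ifit1bl1 held 1 match, TTTCATTTTC, in each of its 2 windows. Neither of the 2 windows of Ifit2 held a match, which says only that these letters are not in those windows; other starts of the gene were not searched. The letters TTCNNNGAA, a gamma-activated site, are in 8.29% of all windows and among the members in 1 window of Ifit2 only, as TTCCTGGAA. The TATA box letters TATAAA are in 13.6% of all windows, and among the members in the windows of Ifit1bl1.

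The members lie together on chromosome 19 (GRCm38), in the order Ifit2 (34550694 to 34576419), Ifit3 (34583531 to 34588731), Ifit1bl1 (34592888 to 34601968), Ifit3b (34607970 to 34613401) and Ifit1 (34640871 to 34650009). Ifit1bl1 is on the minus strand and the others are on the plus strand. A sixth Ifit gene, Ifit1bl2 (34617049 to 34640743, minus strand), lies between Ifit3b and Ifit1 and is no member of the set followed here. The starts of Ifit1bl2 and Ifit1 face each other with 127 bases between the genes, which run in opposite directions. The 2 matches printed for Ifit1 are the same bases that lie before the Ifit1bl2 start. No exon of a member overlapped an exon of another gene in the annotation.

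**Figure D1:**
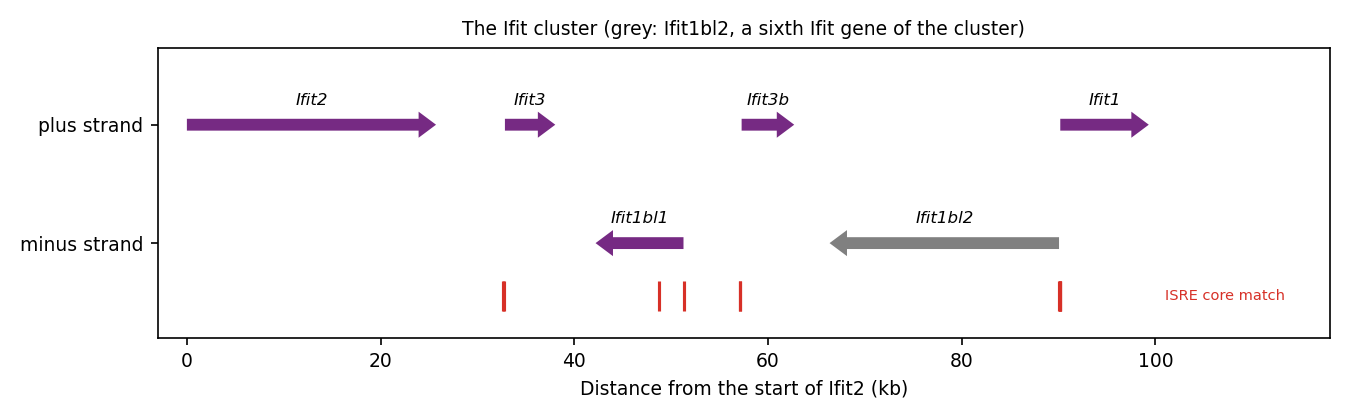
Map of the Ifit cluster, with distance from the start of Ifit2 in kb on the x axis and the strands on the y axis. Arrows are genes in the direction of transcription, grey marks Ifit1bl2, and red ticks are ISRE core matches in the RefSeq start windows; no tick lies at Ifit2, and the ticks of matches that lie close together merge.

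In GMP, Ifit1 rose after the agonist. It had 1564, 804 and 1088 counts in the GMP agonist libraries, against 9, 13 and 37 counts in the GMP control libraries, and its level averaged 33.8 ± 15.2 CPM after the agonist and 0.585 ± 0.446 CPM in controls (SD, n = 3 each). The groups did not overlap: the lowest agonist library, at 22.3 CPM, stood far above the highest control library, at 1.09 CPM. The log2 change was 5.89 ± 0.62 (SE, n = 3 per group; edgeR quasi-likelihood test, Benjamini-Hochberg adjusted p = 0.00388), with a 95% interval of 4.50 to 7.29. Without each library in turn the change was 5.50 to 6.78, with adjusted p from 0.00181 to 0.0348. With limma-voom the change was 6.04 and did not pass (adjusted p = 0.0590). Ifit1 passed the count filter in GMP only with the help of the agonist libraries.

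In LSK-labelled cells, Ifit1 had 2887, 3402 and 3096 counts in the agonist libraries, against 297, 786 and 34 counts in the control libraries. These were levels of 86.9 ± 11.1 CPM after the agonist and 8.92 ± 7.82 CPM in controls (SD, n = 3 each). The agonist libraries were close to each other, at 79.1 to 99.6 CPM, and all lay above the controls, which were spread from 1.02 to 16.6 CPM. The log2 difference was 3.43 ± 0.80 (SE), with a 95% interval of 1.59 to 5.27, and it did not pass the threshold (edgeR adjusted p = 0.212, unadjusted p = 0.00252). Without LSK control replicate 3, the library with 34 counts, the log2 difference was 2.90 ± 0.39 with an adjusted p of 0.0716. The authors' deposited table lists a log2 fold change of 3.39 with an adjusted p of 0.00123 for this gene, and DESeq2 run on the same counts also called it, at 0.00123.

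The spread of Ifit1 within a group moved with the group. Its coefficient of variation was 12.8% in the LSK agonist libraries and 87.6% in the LSK control libraries. The comparison was with the other interferon-stimulated genes listed for this work that had a mean of at least 1 CPM. In the LSK controls none of these 18 had a higher coefficient (median 33.3%), and their highest was also 87.6%. Listed genes left out there by the cut on the mean varied more, each with an SD above its mean. These were Mx1 at 0.419 ± 0.725 CPM, Phf11d at 0.521 ± 0.633 CPM and Ifi27l2a at 0.143 ± 0.197 CPM (SD, n = 3 each). In the LSK agonist libraries 16 of 21 had a higher one (median 18.4%). In the GMP agonist libraries the coefficient of Ifit1 was 45%, and 1 of 21 had a higher one (median 13.4%). Oas3, an oligoadenylate synthetase gene outside that list, had a higher coefficient in the LSK controls, 94.8%. It stood at 15.0, 45.1 and 5.41 CPM in LSK control replicates 1, 2 and 3, in the same order as Ifit1. Genes of the list went both ways in these replicates. Rtp4, at 44.2, 60.6 and 29.2 CPM, kept the order of Ifit1. Ifi44, at 18.9, 0.275 and 13.8 CPM, was lowest where Ifit1 was highest. Beside these levels, the summed level of the 9 GMP marker genes was 3662, 1357 and 11083 CPM in LSK agonist replicates 1, 2 and 3, and 4224, 494 and 4142 CPM in LSK control replicates 1, 2 and 3. The control library with the highest Ifit1 thus had the lowest GMP marker sum. The summed level of the 7 megakaryocyte and platelet markers was 17.2, 24.4 and 45.6 CPM in LSK agonist replicates 1, 2 and 3, and 144.7, 274.6 and 108.8 CPM in LSK control replicates 1, 2 and 3, so among the controls it ordered the libraries as Ifit1 did. The groups did not overlap in this sum, nor in that of the 10 LSK and stem cell markers, at 182 to 202 CPM in the LSK agonist libraries and 308 to 539 CPM in the LSK control libraries. By mean, Itga2b was the largest part of the first sum, at 11.1 to 28.8 CPM (LSK agonist) and 52.0 to 229.7 CPM (LSK control). Kit was the largest part of the second, at 145.0 to 166.9 CPM and 193.7 to 345.1 CPM. In the second list Ly6a and Thy1 had a higher mean after the agonist, and the others a lower one. In GMP the megakaryocyte and platelet sum was 20.1 to 34.2 CPM after the agonist and 27.9 to 94.8 CPM in controls. The part of cell makeup in the spread, and in the differences between agonist and control libraries, was not tested.

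Ifit1bl1, a close relative of Ifit1 whose protein is less well studied, rose in GMP. It had 72, 272 and 157 counts in the GMP agonist libraries, against 1, 0 and 0 counts in the GMP control libraries. The summed counts, 501 after the agonist and 1 in controls, gave a ratio of 479 in CPM, with a 95% exact interval of 85.6 to 18960 for counting error alone. The gene passed the count filter through the agonist libraries alone, so it had to differ to be tested. The log2 change was 8.49 ± 1.19 (SE, n = 3 per group, edgeR adjusted p = 0.0168); its size depends on the prior count of the fit. Without each of the 3 GMP agonist libraries in turn the adjusted p was 0.0559, 0.214 and 0.136, so the call rested on all 3. The adjusted p was 0.0960 with a block for the replicate number, 0.250 in the joint fit of all 12 libraries and 0.168 with limma-voom, and the call was lost in each of these.

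In LSK-labelled cells, Ifit1bl1 had 445, 1 and 410 counts in the agonist libraries, against 0 counts in each of the 3 control libraries. The 2 high agonist libraries stood at 12.6 and 10.5 CPM, and agonist replicate 2 stood at 0.0293 CPM, within counting error of the controls. With 3 counts taken as a floor for the control group, the summed counts were 298-fold higher after the agonist. The exact 95% lower limit of the ratio was 241.7 for counting error alone, and agonist replicate 2 had no part in this rise. Because only 2 libraries carried it, the gene fell below the count filter and was not tested. With no filter on low counts its adjusted p was 7.91e-07, with DESeq2 it was 6.68e-05 and in a joint fit of all 12 libraries it was 0.0677.

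The neighbour Ifit1bl2 had 57, 1 and 56 counts in the GMP agonist libraries, against 1, 1 and 9 in the GMP control libraries, and 41, 230 and 1 counts in the LSK agonist libraries, against 1, 0 and 0 in the LSK control libraries. It was at 1 count in GMP agonist replicate 2, the GMP library with the most Ifit1bl1, and at its highest in LSK agonist replicate 2, which had 1 count of Ifit1bl1. The counts of both genes together were 129, 273 and 213 in the GMP agonist libraries, against 2, 1 and 9 in the GMP control libraries. They were 486, 231 and 411 in the LSK agonist libraries, against 1, 0 and 0 in the LSK control libraries. The transcripts of these genes were 91.6% identical over 2156 aligned bases, and 0.524% of the 100-base stretches and 6.60% of the 50-base stretches of Ifit1bl1 occurred in another gene's transcript; how such reads were assigned is not stated.

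Ifit2 was not called in either cell type. In GMP it had 518, 1045 and 863 counts after the agonist, against 236, 824 and 382 in controls, or levels of 22.7 ± 6.03 CPM and 14.6 ± 9.93 CPM (SD, n = 3 each). The groups overlapped, since GMP control replicate 2, at 25.7 CPM, lay above 2 of the agonist libraries. The log2 difference was 0.73 ± 0.46 (SE, edgeR adjusted p = 0.710), with a 95% interval of -0.29 to 1.75. Without that control library it was 1.39 ± 0.38 (adjusted p = 0.230).

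In LSK-labelled cells, Ifit2 had 449, 824 and 548 counts in the agonist libraries, against 896, 739 and 562 in the control libraries. Its levels were 16.95 ± 6.24 CPM after the agonist and 20.0 ± 6.51 CPM in controls (SD, n = 3 each), and the groups overlapped. The log2 difference was -0.07 ± 0.41 (SE, edgeR adjusted p = 0.972), with a 95% interval of -1.01 to 0.87. In these cells an Ifit2 rise as large as the Ifit1 difference of 3.43 lay outside the interval. No 50-base stretch of the Ifit2 transcript occurred in another gene's transcript.

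Ifit3 was sparse. It had 11, 56 and 44 counts in the GMP agonist libraries, against 0, 0 and 15 in the GMP control libraries. In GMP the groups overlapped, because agonist replicate 1, at 0.359 CPM, lay below control replicate 3, at 0.443 CPM. The log2 difference was 2.78 ± 1.72 (SE, edgeR adjusted p = 0.705), with a 95% interval of -1.08 to 6.64.

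In LSK-labelled cells, Ifit3 had 39, 0 and 95 counts in the agonist libraries, against 0, 0 and 18 in the control libraries. The groups overlapped here too, and the log2 difference was 2.75 ± 2.39 (SE, edgeR adjusted p = 0.713), with a 95% interval of -2.73 to 8.23. Ifit3b, its near copy, had 0 counts in each LSK agonist library, against 0, 0 and 12 in the LSK control libraries, and fell below the count filter. A count of 0 allows up to 3 counts, or 0.0635 to 0.0979 CPM over the libraries.

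The counts of Ifit3 and Ifit3b are uncertain, because the genes can share reads. Their transcripts were 98.0% identical over 1697 aligned bases. Of the 100-base stretches of the transcripts, 31.7% of those of Ifit3 and 27.4% of those of Ifit3b occurred in the other, and of the 50-base stretches 51.2% and 44.5%. With both rows summed, the log2 difference in LSK-labelled cells was 2.02 ± 2.39 (edgeR adjusted p = 0.793). For Ifit1 the share was 3.29% of the 100-base stretches, all of it with Ifit1bl2, and 7.13% of the 50-base stretches, nearly all of it with Ifit1bl2. The read length is not given in the sources used here.

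**Figure D2:**
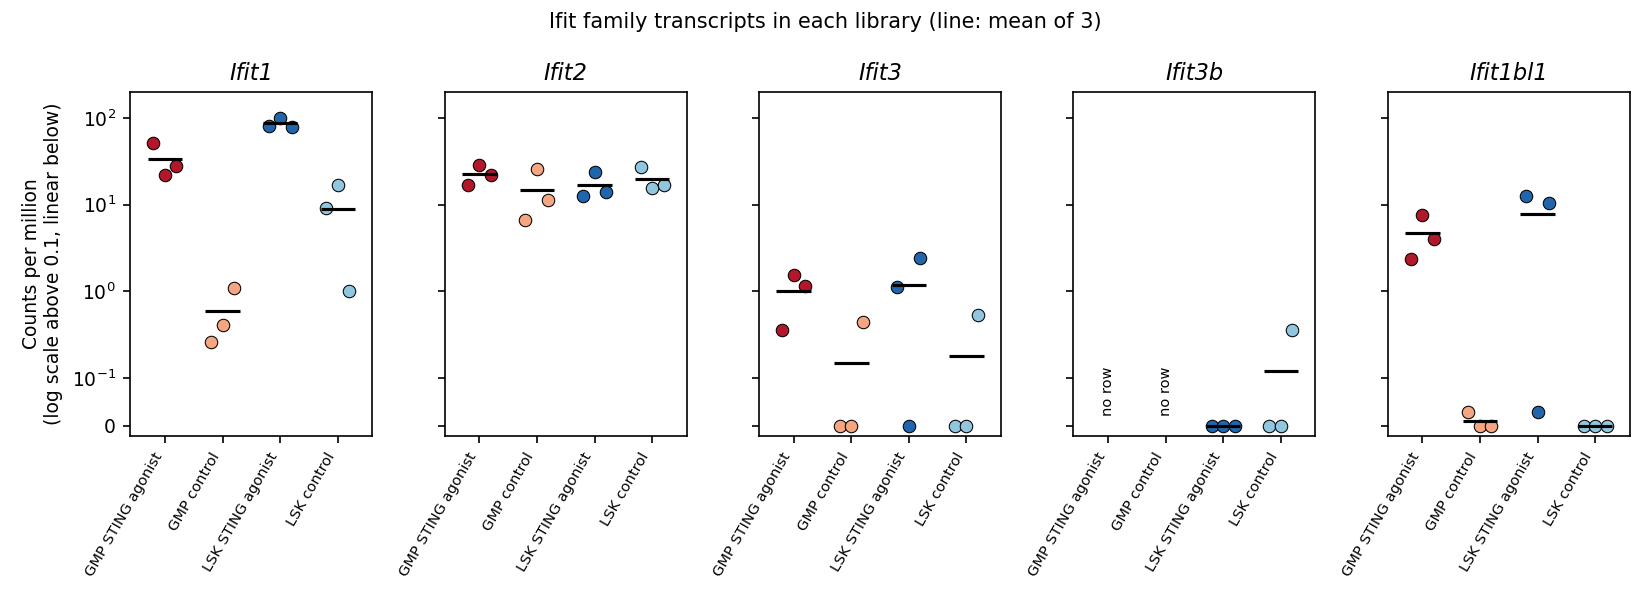
Level of each Ifit gene in each library, in CPM (log scale above 0.1, linear below), with 1 point per library and a line at the mean of 3. Ifit1 separates agonist from control libraries in both cell types, Ifit2 overlaps in both, and the LSK agonist libraries carry 12.6, 0.0293 and 10.5 CPM of Ifit1bl1.

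Read against all genes, 2 of the 4 members tested in GMP (Ifit1 and Ifit1bl1) were called higher and none lower, where 0.386% of the 15027 genes tested were called higher and 0.0399% lower. Ifit1 and Ifit1bl1 had both passed the count filter only with the help of the agonist libraries, in which they were high. The GMP control libraries had 9, 13 and 37 counts of Ifit1 and 1, 0 and 0 of Ifit1bl1. The count called is thus tilted towards members that were high after the agonist. In LSK-labelled cells 0 of the 3 members tested (Ifit1, Ifit2 and Ifit3) were called by edgeR, where 0.338% of the 13922 genes tested were called higher and 0% lower. At an unadjusted p below the threshold of 0.05, edgeR gave 1642 genes in LSK-labelled cells. DESeq2 called 2 members higher in LSK-labelled cells, where it called 2.59% of 15388 genes higher, and 2 in GMP, where it called 1.59% of 16940 genes higher. Agonist and control libraries did not overlap, with the agonist higher, for Ifit1 and Ifit1bl1 in GMP and for Ifit1 in LSK-labelled cells; among all genes tested this held for 6.29% in GMP and 7.13% in LSK-labelled cells. Ifit1bl1 in LSK-labelled cells was not among the genes tested, and its lowest agonist library was above 0 by a single count.

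**Figure D3:**
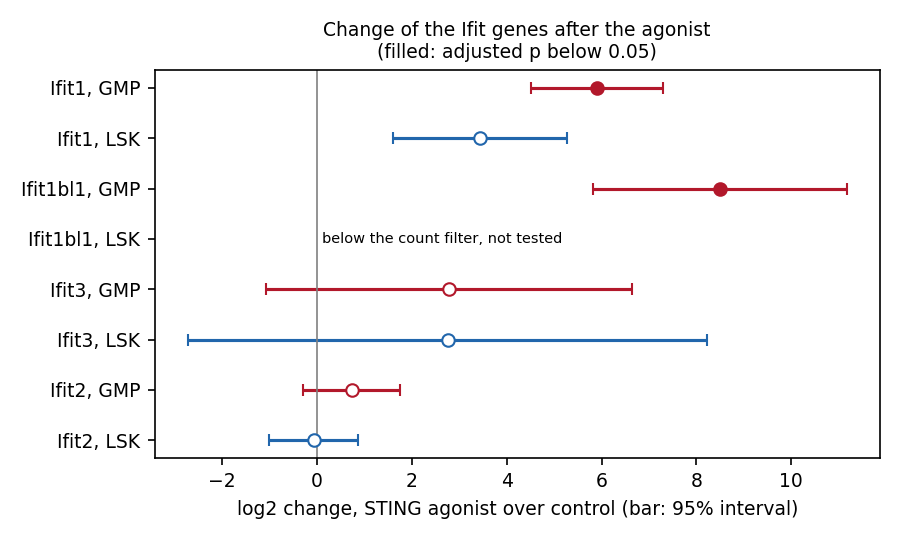
The log2 change of the Ifit genes, STING agonist over control, by edgeR, with 95% intervals. Filled points passed the adjusted p of 0.05, which were Ifit1 and Ifit1bl1 in GMP (5.89 and 8.49); both Ifit2 intervals include 0.

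The libraries of 1 group did not rank the members alike. Among the GMP agonist libraries, Ifit1 was highest in replicate 1, at 51.0 CPM, while Ifit1bl1, Ifit2 and Ifit3 were lowest there, at 2.35, 16.9 and 0.359 CPM. In replicate 2 the reverse held, with Ifit1 at its lowest, 22.3 CPM, and Ifit1bl1, Ifit2 and Ifit3 at their highest, 7.53, 28.9 and 1.55 CPM. Among the LSK agonist libraries, replicate 2 had the highest Ifit1 and Ifit2, at 99.6 and 24.1 CPM, and the lowest Ifit1bl1 and Ifit3, at 0.0293 and 0 CPM. These are orders within 3 libraries and were not tested.

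Relative to its mean, the summed level of the members was steadier than Ifit1 or Ifit2 in the agonist libraries, and about as spread as Ifit2 in the controls. In GMP it was 62.2 ± 7.72 CPM after the agonist and 15.3 ± 9.81 CPM in controls (SD, n = 3 each), and in LSK-labelled cells it was 113 ± 9.61 CPM after the agonist and 29.2 ± 9.32 CPM in controls. The makeup of this sum differed between the groups. To set genes beside each other, each level was divided by the exon length of the gene, 2656 bases for Ifit1, 3927 for Ifit2, 1745 for Ifit3, 2000 for Ifit3b and 2260 for Ifit1bl1.

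Per kb of exon, Ifit1 held 77.6, 42.0 and 56.6% of the members' summed level in the GMP agonist libraries, against 5.30, 2.28 and 11.6% in the GMP control libraries. Ifit2 held 17.4, 36.9 and 30.4% in the GMP agonist libraries, against 94.0, 97.7 and 81.2% in the GMP control libraries. The GMP groups did not overlap in either share. Thus Ifit2 made up most of the Ifit signal in GMP controls, and Ifit1 had the largest share of any member in each GMP agonist library. This order holds per kb: of the counts themselves, GMP agonist replicate 2 had 48.002% from Ifit2 and 36.9% from Ifit1.

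In LSK-labelled cells Ifit1 held 76.5, 85.9 and 75.6% per kb in the agonist libraries, against 32.9, 61.1 and 7.43% in the control libraries. Ifit2 held 8.05, 14.1 and 9.06% in the agonist libraries, against 67.1, 38.9 and 83.1% in the control libraries. The groups did not overlap, but in control replicate 2 Ifit1 already held the larger share. Ifit1bl1 held 10.2% on average in the GMP agonist libraries and 0.231% in the GMP control libraries, and 8.55% in the LSK agonist libraries and 0% in the LSK control libraries. Ifit3 held between 1.70 and 2.92% on average in each of the 4 groups.

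**Figure D4:**
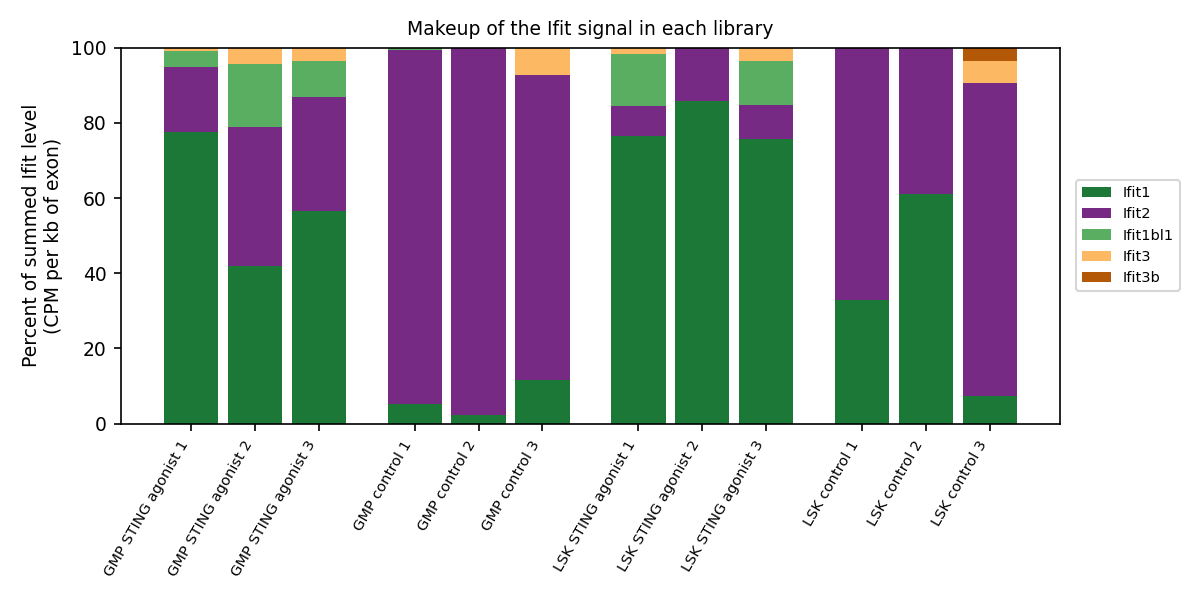
Makeup of the Ifit signal in each library, as the percent of the summed level per kb of exon that each gene holds. Ifit2 holds 81.2 to 97.7% in the GMP control libraries, and Ifit1 holds 42.0 to 77.6% in the GMP agonist libraries and 75.6 to 85.9% in the LSK agonist libraries; Ifit3b is shown at 0 in GMP, where it has no row.

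The levels were also compared between the cell types, in a joint fit of all 12 libraries on 16857 genes. Only Ifit1 and Ifit2 had a count in every library, and values are given for these. In controls, Ifit1 was lower in GMP, at 0.257, 0.406 and 1.09 CPM, than in LSK-labelled cells, at 9.10, 16.6 and 1.02 CPM. The log2 difference was -3.93 ± 0.83 (SE, edgeR adjusted p = 0.00960), although the groups overlapped by the lowest LSK-labelled library. It was the 1 member called, lower in GMP, of 4 tested, where 6.98% of all genes tested were called lower and 4.55% higher. With limma-voom its adjusted p was 0.125. With a block for the replicate number its edgeR adjusted p was 0.180, but that fit compared the cell types at replicate number 1 and not over all replicates.

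After the agonist, Ifit1 stood at 22.3 to 51.0 CPM in GMP and at 79.1 to 99.6 CPM in LSK-labelled cells, with no overlap. The log2 difference of -1.41 ± 0.72 (SE) did not pass with edgeR (adjusted p = 0.254) and passed with limma-voom (-1.503, adjusted p = 0.0183). By edgeR 0 of 4 members were called after the agonist, where 4.57% of all genes tested were called higher and 4.85% lower. Non-overlap with GMP lower was found for 16.0% of all genes tested. The cell types differ in many ways besides their response, as the Car2 and Mpo levels show, and the part of cell makeup in these differences was not tested.

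Ordered by mean, the Ifit1 level was highest in the LSK agonist libraries, then in the GMP agonist, LSK control and GMP control libraries. Of the neighbours in this order, only the LSK control and GMP control libraries overlapped. The Ifit2 level ran from 22.7 CPM in the GMP agonist libraries through 20.0 CPM in LSK controls and 16.95 CPM in LSK agonist libraries to 14.6 CPM in GMP controls, and all neighbours in this order overlapped. Between GMP and LSK-labelled cells Ifit2 had a log2 difference of 0.37 ± 0.47 after the agonist and of -0.47 ± 0.47 in controls (SE, edgeR), and neither passed.

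Whether the agonist effect differed between the cell types was tested as an interaction. For Ifit1 the effect in GMP minus that in LSK-labelled cells was 2.52 ± 1.05 on the log2 scale (SE, edgeR unadjusted p = 0.0329, adjusted p = 0.469), with a 95% interval of 0.24 to 4.79. For Ifit2 it was 0.84 ± 0.67 (adjusted p = 0.690), with a 95% interval of -0.61 to 2.30. No member of the 4 tested and 0 of all 16857 genes were called (0% in either direction), with 1707 genes at an unadjusted p below 0.05 by edgeR; with DESeq2, which called 141 genes higher and 122 lower, no member was called either. Without LSK control replicate 3, the Ifit1 value was 2.996 ± 0.72 (adjusted p = 0.327), and without LSK control replicate 2 it was 1.60 ± 0.96 (adjusted p = 0.696).

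The genes that act before the Ifit genes were sparse or changed in part. Of 10 interferon genes listed for this work, 4 had a row in GMP and 5 in LSK-labelled cells, and 0 reached the count filter. In GMP, agonist replicate 1 had 3 counts of Ifnb1, 15 of Ifna5 and 41 of Ifnl3, and no other GMP library had a count of these. Ifnk had 0, 17 and 3 counts in the GMP agonist libraries, against 1, 0 and 1 in the GMP control libraries. In LSK-labelled cells, agonist replicate 1 had 15 counts of Ifna1, 18 of Ifna4 and 1 of Ifnl3, agonist replicate 2 had 1 of Ifna5, control replicate 1 had 2 of Ifnl3 and control replicate 2 had 58 of Ifnk. The highest count of an interferon gene thus lay in a control library, where the 58 counts of Ifnk were 1.23 CPM. The highest level lay in an agonist library, where the 41 counts of Ifnl3 were 1.34 CPM. Without replicate 1, the Ifit1 change in GMP was 5.50 ± 0.66 and the difference in LSK-labelled cells was 3.46 ± 0.91 (SE, edgeR adjusted p = 0.0260 and 0.560).

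Of 9 tested genes of nucleic acid sensing and IRF signalling, 2 were called higher in GMP and 1 in LSK-labelled cells, and none lower. Irf7, the interferon-induced factor that amplifies interferon production, had 24.7, 16.3 and 31.4 CPM in the GMP agonist libraries, against 0.513, 0.750 and 1.005 CPM in the GMP control libraries. Its log2 change in GMP was 5.05 ± 0.44, and its change in the LSK-labelled libraries was 3.77 ± 0.33 (SE, edgeR adjusted p = 0.00122 and 0.00358). Ddx58, which encodes the RNA sensor RIG-I, rose by 1.89 in GMP (edgeR adjusted p = 0.0136). Tmem173, the gene of STING itself, had log2 differences of 0.14 in GMP and 0.02 in LSK-labelled cells and was not called. For the whole list the median log2 change was 0.17 (GMP) and 0.07 (LSK-labelled), beside -0.04 and 0.02 over all genes tested.

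Irf9, the DNA-binding subunit of ISGF3, had log2 differences of 0.87 in GMP and 0.92 in LSK-labelled cells, and Stat2 of 0.17 and 0.76, and none of these passed. The receptor genes Ifnar1 and Ifnar2 were not called either.

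Among 5 negative regulators, Usp18, which removes ISG15 from proteins and dampens the receptor, rose in LSK-labelled cells (log2 change 3.13, edgeR adjusted p = 0.0117) and had a log2 difference of 2.54 in GMP that did not pass (adjusted p = 0.152). Of 12 genes that act on RNA or its cap beside the Ifit proteins, 1 was called higher in each cell type. In GMP it was Dhx58, an RNA helicase related to RIG-I (log2 change 2.25), and in LSK-labelled cells it was Oas2, an oligoadenylate synthetase (log2 change 5.17). The genes of the cap methyltransferases, Cmtr1 and Rnmt, were not called in either cell type. Oas2 had 6.74, 4.53 and 4.90 CPM in the LSK control libraries, an even level where Ifit1 ran from 1.02 to 16.6 CPM and the related Oas3 from 5.41 to 45.1 CPM. None of the 5 tested neighbours outside the Ifit cluster, Lipa and Fas among them, was called in either cell type. Fas still had 79, 90 and 91 counts in the LSK agonist libraries, against 0, 6 and 0 in the LSK control libraries. Such non-overlap, agonist higher, held for 7.13% of all genes tested there. In GMP the Fas counts were 22, 65 and 74 against 9, 4 and 25, and the groups overlapped. Lipa was lower in the LSK agonist libraries, at 87.6 to 93.9 CPM, than in the LSK controls, at 105.4 to 152.9 CPM.

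Of 21 other interferon-stimulated genes tested, 11 were called higher in GMP and 9 in LSK-labelled cells, and none lower. Over the 21 genes the median log2 change was 2.46 (GMP) and 2.07 (LSK-labelled). The 4 with the smallest p in GMP were Oasl2 (3.91), Ifi44 (4.77), Rtp4 (4.33) and Phf11d (6.39), and in LSK-labelled cells they were Ifitm3 (3.18), Bst2 (2.07), Xaf1 (3.04) and Oasl2 (3.26), as log2 changes. Ifit1 and Ifit1bl1 in GMP were thus changed by more than the median of this list, and the Ifit2 difference was below that median in both cell types; the difference from the list was not tested.

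Markers of plasmacytoid dendritic cells, a strong source of interferon, were looked at beside these results. The summed level of the 6 listed genes was 548 to 581.8 CPM in the GMP agonist libraries and 199 to 307 CPM in the GMP control libraries, and 420 to 518 CPM in the LSK agonist libraries and 192 to 225 CPM in the LSK control libraries. Of these genes Bst2, itself an interferon-stimulated gene, stood at 454.4 to 510.5 CPM in the GMP agonist libraries and 120.5 to 198.4 CPM in the GMP control libraries, and at 351.6 to 403.6 CPM in the LSK agonist libraries and 88.7 to 111.8 CPM in the LSK control libraries. The defining marker Siglech stood at 0 to 0.359 CPM in the GMP agonist libraries and 0 to 1.39 CPM in the GMP control libraries, and at 0 to 0.0293 CPM in the LSK agonist libraries and 0 CPM in the LSK control libraries. Between 1 and 4 of the 6 markers were at 0 or had no row in each library.

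**Figure D5:**
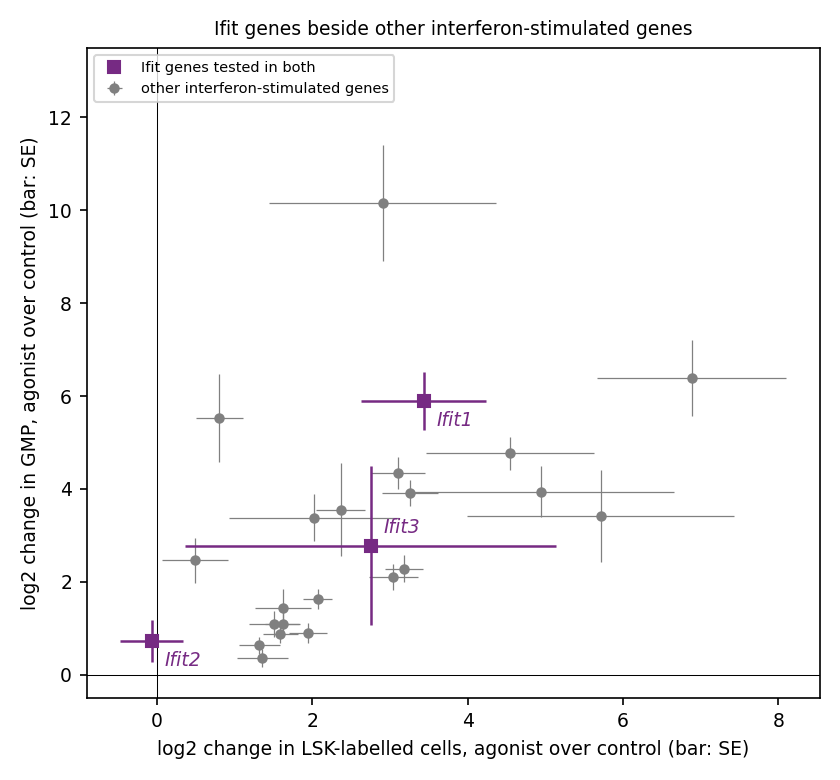
The log2 change after the agonist in LSK-labelled cells (x axis) and in GMP (y axis), with SE bars, for 21 other interferon-stimulated genes (grey circles) and for the Ifit genes tested in both (squares). Ifit1 lies at 3.43 and 5.89, Ifit3 at 2.75 and 2.78 with wide bars, and Ifit2 at -0.07 and 0.73, near 0.

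The genes whose pattern was most like the summed Ifit level were ranked by Pearson correlation over the 12 libraries, on log2(CPM + 1), without the members. The first 8 were Dusp1 (r = 0.953), Ddx60 (0.948), Rnf213 (0.945), Irgm2 (0.943), Rtp4 (0.939), Usp18 (0.936), Igtp (0.935) and H2-Q5 (0.931). These values describe libraries that share their treatment, cell type and totals, and are given without a test. Dusp1, a phosphatase gene of the immediate-early response, stood at 290, 360 and 369 CPM in the GMP agonist libraries, against 82.9, 115 and 77.3 CPM in the GMP control libraries. Ddx60 encodes a helicase of the antiviral response. It had 95.3, 145 and 122.9 CPM in the LSK agonist libraries, against 18.9, 18.3 and 4.93 CPM in the LSK control libraries, and among the LSK controls it was lowest in replicate 3, as Ifit1 was.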

How the data were processed

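RNA was amplified by Smart-Seq2, per the labels' protocols. For each cell type the authors deposited a table of raw counts per gene, a base mean (a signal scaled by size factors), a fold ratio, its log2 value, and p-values of their own test, per the file headers. No source used here gives aligner, counter, strand setting or read length. The build listed by the submitters' processing notes is mm9, but positions in the tables were those of GRCm38 (GENCODE M21) for 94.8% (GMP) and 94.6% (LSK) of matched genes, so positions are given as GRCm38.

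Groups came from titles and treatment labels. Counts were tested in R 4.3.3 with edgeR 4.0.16 (quasi-likelihood test, TMM factors, filterByExpr, Benjamini-Hochberg adjustment over all genes tested, threshold 0.05), within each cell type, and jointly for 12 libraries and the 24982 shared genes. The scripts were tested on simulated data. DESeq2 1.42.0, limma-voom (limma 3.58.1), other scalings and filters, a replicate block, summed copies and left-out libraries were alternatives. Intervals and floors cover counting error only where they come from counts; reads carry no molecular identifiers. Every member is named in full. The genes most alike are the first 8 by correlation, and each gene list gives up to 4 called genes by smallest p, with Tmem173, Irf9, Stat2, Ifnar1, Ifnar2, Oas3, Cmtr1, Rnmt, Lipa, Fas, the interferon genes and the lists' markers added after their values were seen. Members and lists were chosen with earlier results of these data known. Transcript identity and shared stretches came from GENCODE M21 transcripts. Some items of these lists are not reported here.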

Additional observations from a re-analysis of the deposited data

How the results depend on the processing

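The count of members called in LSK-labelled cells, 0 by edgeR, was 2 with DESeq2 and 2 with no filter on low counts, and 0 in every fit without 1 library. In GMP, where edgeR called 2, the count was 0 with limma-voom (Ifit1 adjusted p = 0.0590, Ifit1bl1 0.168), 1 in the joint fit of all libraries and 1 with close copies summed, where Ifit1 and Ifit1bl1 are a single row, and it ran from 1 to 2 without 1 library. For GMP against LSK-labelled controls the count of 1 became 0 with limma-voom, and after the agonist the count of 0 became 1 with limma-voom. The interaction count stayed at 0 in each setting run.

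The replicate numbers of the titles did not pair the libraries: deviations of same-numbered libraries correlated at -0.0289 to 0.0916 in GMP and at -0.0342 to 0.0746 in LSK-labelled cells, between agonist and control. Between the cell types, within a treatment, they correlated at 0.0335 to 0.283, not above 0.1 in every pair, against -0.250 to 0.0893 for libraries with other numbers; this is a hint from the data of something shared, not part of the design. The block on the replicate number paired agonist with control libraries within each cell type, and no fit paired libraries between the cell types. With this block the count of members called was 1 in GMP (Ifit1bl1 edgeR adjusted p = 0.0960) and 0 in LSK-labelled cells. Between the cell types, the fit with the block compared the groups at replicate number 1 and not over all replicates. There the count was 0 for GMP against LSK-labelled controls, and the Ifit2 difference after the agonist was -0.28. These values therefore cannot be set directly against those of the fit without a block.

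The Ifit2 difference in LSK-labelled cells, near 0, ran from -0.46 to 0.18 without 1 library and so changed sign. The share of Ifit2 in the LSK agonist libraries was 14.8% of counts without the division by length, against 10.4% with it. Ifit3 fell below the stricter filter in both cell types and so has no value there. Over all genes, the count called higher was 47 in LSK-labelled cells with edgeR, 398 with DESeq2, 272 with no filter, 90 in the joint fit, 10 with the block and 11 to 32 without 1 library. In GMP it was 58, 269, 159, 37, 20 and 18 to 71 in the same order. With library totals in place of TMM the median log2 change of all genes moved to -0.12 in LSK-labelled cells, against 0.02, and there Ifit1 was at 3.28 and Ifit2 at -0.24. Ifit3, Ifit3b and Ifit1bl1 had 0 counts in 1 or more libraries. LSK control replicate 2, the library with the most counts, had 0 of each. The cause of these counts of 0 was not tested. The cause of the changes between settings was not tested.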
